A study of Sus scrofa with 13 samples.

Results

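The genes described here are those named for the immediate early response, the Krüppel-like factors (KLF) and the dual-specificity phosphatases (DUSP). Members were all genes whose symbol starts with FOS, JUN, EGR and a digit, IER, KLF, NR4A or DUSP, or equals ATF3, MYC, CYR61, BTG1 or BTG2, with the brightest probe set on average standing for each gene. This gave 32 of 10283 genes with 1 symbol: 12 of the immediate early kind, 6 KLF and 14 DUSP genes. A further 2 probe sets carried a member's symbol beside another gene's and were not used. Each of the 13 arrays held RNA of 1 animal, taken from the biceps femoris, a skeletal muscle of the hind leg. The pigs were German Landrace. Arrays came from 3 dystrophin knockout (DMD KO) pigs and 3 wild-type (WT) pigs aged 3 months, and from 4 DMD KO and 3 WT pigs aged 2 days. DMD KO pigs carried a deletion of exon 52 of DMD, introduced into primary kidney cells with a modified bacterial artificial chromosome, and were born after nuclear transfer from those cells. Their muscle was taken at necropsy right after they died, while WT animals were killed at matching ages. Genotype thus cannot be told apart from how the animals died. The labels do not say whether WT animals were also cloned, so an effect of cloning on the genotype comparison was not tested, and the number of cell clones behind the DMD KO animals was not found either.

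Immediate early genes are switched on within minutes of a stimulus without new protein synthesis, by kinases of the MAP kinase cascade acting on the serum response factor SRF and its partners and on CREB. FOS and JUN form the transcription factor AP-1, EGR2 is a zinc finger factor, NR4A2 and NR4A3 are orphan nuclear receptors, and ATF3 is a stress-induced partner of the same leucine zipper family. In skeletal muscle such genes are known to respond to contraction, injury and stress. Many dual-specificity phosphatases remove phosphate from MAP kinases and act as the brake on the same cascade, and Krüppel-like factors are zinc finger regulators, of which several are induced by growth factors, TGF-beta or glucocorticoids.

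The deposited values were read as log2 levels, with array medians between 7.32 and 7.38. The number of animals sets how precise each comparison is. Levels of different probe sets are not strictly comparable, so differences are taken for each gene across arrays. Array percentiles and means over lists serve only as a rough guide to level. Of 10 skeletal muscle markers 4 were measured (ACTA1, CASQ1, MYH1 and MYH7), and their mean log2 level lay between 11.56 and 12.41 on every array, above the 95th percentiles of the arrays (9.21 to 9.83). Among them MYH7, the slow myosin, was higher in DMD KO at 2 days (1.67, adjusted p = 0.00816). MYH1, a fast myosin, and CASQ1, a calcium-binding protein of the sarcoplasmic reticulum, were lower (-0.91, adjusted p = 0.00615, and -0.41, adjusted p = 0.0404). By limma these were 3 of 4, against 9.93% of all probe sets. None of the 4 passed between genotypes at 3 months by limma, where 2 had an unadjusted p under 0.05: ACTA1 at -0.45 (adjusted p = 0.0621) and CASQ1 at -0.37 (adjusted p = 0.106). WT replicate 3 at 2 days correlated least with the other arrays (mean r = 0.918 across probe sets) and scored highest, at 61.1, on the first component of the deviations from the group means, called the axis score below. The axis scores were -33.7 to -1.13 in DMD KO and -14.9 to 31.6 in WT at 3 months, and -17.1 to -5.68 in DMD KO and -10.9 to 61.1 in WT at 2 days. Fits with this score as a covariate are given where they end a call.

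Few members passed between genotypes, and FOS, JUN, EGR2 and the NR4A genes were not among them. At 2 days 3 of the 32 members, BTG1, DUSP12 and MYC, were higher in DMD KO and 1, DUSP7, was lower. With limma over all probe sets and Benjamini-Hochberg adjustment, this is 12.5% of the members, against 9.93% of all probe sets (7.09% higher and 2.85% lower), a share near that of all probe sets. At 3 months BTG1 and KLF5 were higher in DMD KO and DUSP27 and DUSP3 lower, again 4 of 32, against 5.98% of all probe sets (4.62% higher and 1.36% lower). Without WT replicate 3 at 2 days none of the 4 calls at 2 days held by limma, with 5.53% of all probe sets called, and 5 members were called at 3 months. Without DMD KO replicate 2 at 3 months 2 members were called at 2 days and 1 at 3 months. For these counts and the 5 before them the share of all probe sets is not given. They are thus not read as results about the members. BTG1 was the 1 member called at both ages, and the share of all probe sets called at both ages was not computed. The median log2 difference of the 32 members was 0.094 at 2 days and 0.048 at 3 months, against -0.022 and -0.049 over all probe sets. The values of the genotypes did not overlap for 7 members in the higher and 3 in the lower direction at 2 days, against 14.1% and 10.5% of all probe sets, and for 5 and 4 members at 3 months, against 12.9% and 10.1%. Only the 4 members called at each age are described below as changed between genotypes.

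**Figure D1:**
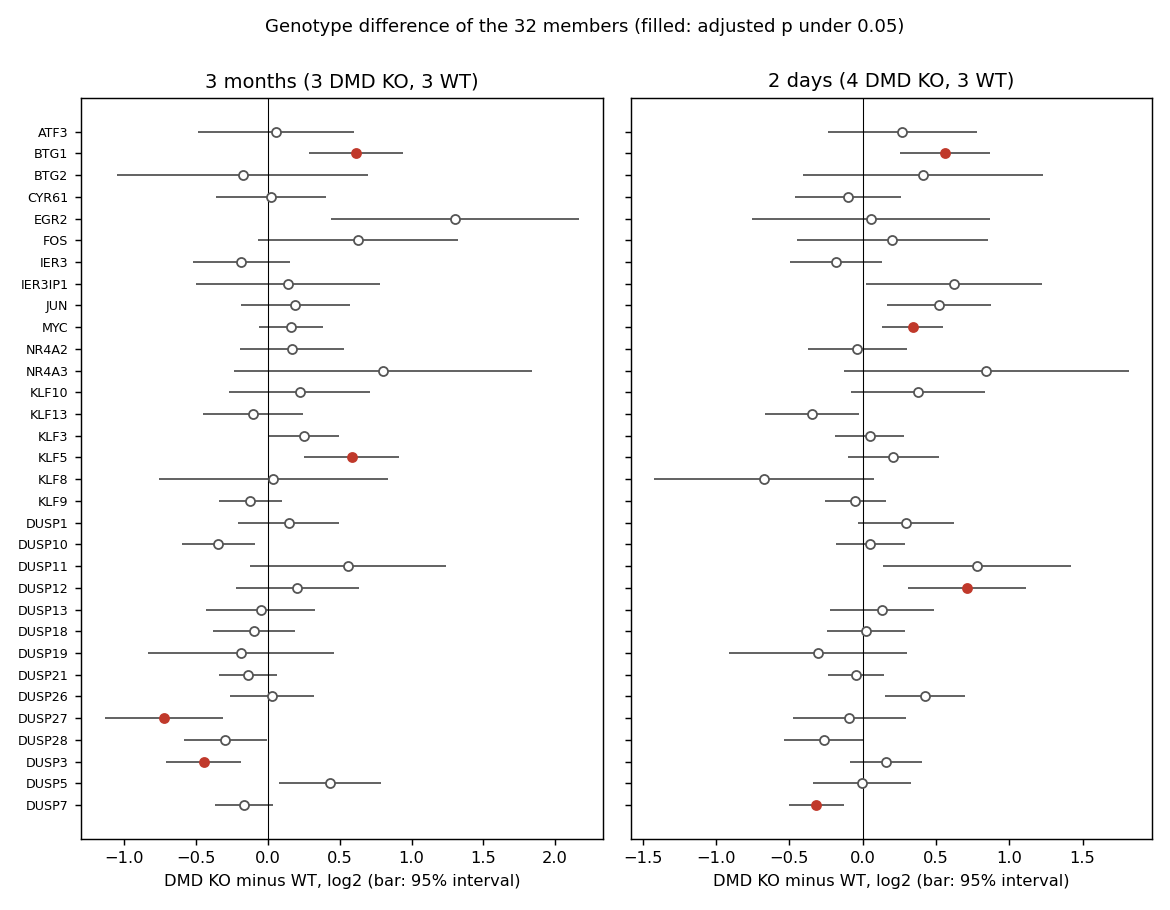
Difference in log2 level, DMD KO minus WT, for each of the 32 members at 3 months (left) and 2 days (right), with 95% intervals from limma and members past an adjusted p of 0.05 filled. BTG1 lies to the right of 0 in both panels, and the interval of NR4A3 is the widest in both, from -0.24 to 1.84 at 3 months and -0.13 to 1.82 at 2 days.

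The classical early genes set 1 animal apart. FOS had log2 levels of 7.70, 9.27 and 7.65 in DMD KO replicates 1 to 3 at 3 months, against 7.54, 7.75 and 7.45 in WT. EGR2 had 8.25, 10.28 and 8.26 in the same DMD KO animals, against 7.57, 7.46 and 7.85 in WT. NR4A3 had 7.85, 9.57 and 7.77 in DMD KO, against 7.65, 7.45 and 7.68 in WT. In each case DMD KO replicate 2 stood well above the rest: it was higher than the next DMD KO animal by more than 1 log2 unit, while the other DMD KO animals lay within the WT range for FOS and above it for NR4A3 and EGR2. BTG2, an antiproliferative gene that p53 and growth factors induce, had 8.17, 9.86 and 8.17 in DMD KO, against 9.28, 9.27 and 8.19 in WT. Here the groups overlapped, with WT replicates 1 and 2 between DMD KO replicate 2 and the other DMD KO animals, and WT replicate 3 level with those.

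**Figure D2:**
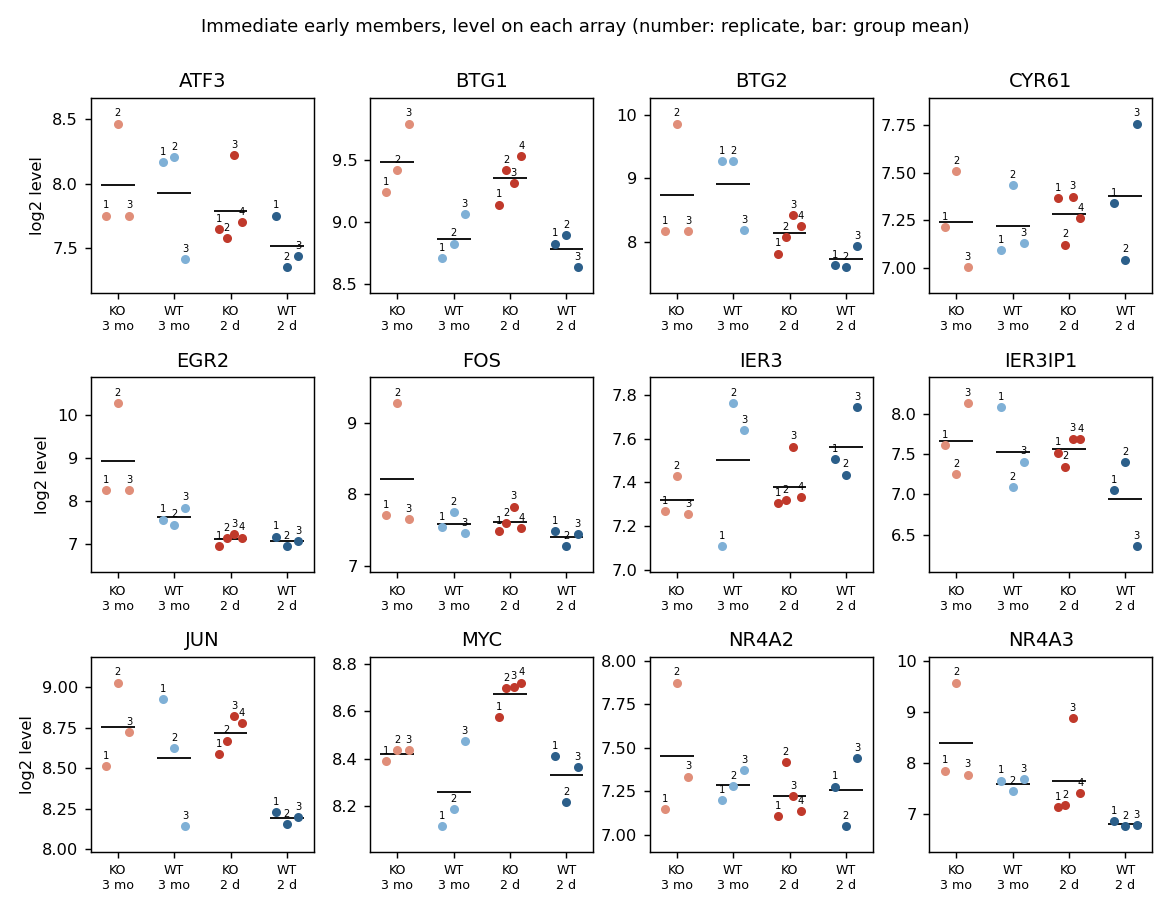
Log2 level of the 12 immediate early members on each of the 13 arrays, with the replicate number beside each point and a bar at the group mean; each panel has its own axis. DMD KO replicate 2 at 3 months is the highest point of all 13 arrays in the panels of ATF3, BTG2, EGR2, FOS, JUN, NR4A2 and NR4A3.

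With so wide a spread, none of these genes passed the genotype test at 3 months. EGR2 averaged 8.93 ± 1.17 in DMD KO and 7.63 ± 0.20 in WT (SD, n = 3 each), a difference of 1.30 ± 0.40 (SE, adjusted p = 0.0840). FOS differed by 0.63 ± 0.32 (SE, adjusted p = 0.318), NR4A3 by 0.80 ± 0.48 (SE, adjusted p = 0.395) and BTG2 by -0.18 ± 0.40 (SE, adjusted p = 0.823). Without DMD KO replicate 2 the difference of FOS was 0.096 (adjusted p = 0.717), that of NR4A3 0.21 (adjusted p = 0.791) and that of BTG2 -0.74 (adjusted p = 0.214). For EGR2 the difference was smaller without that animal, 0.63 (adjusted p = 0.0223), yet it passed, with the remaining DMD KO animals close together at 8.25 and 8.26, above the highest WT value of 7.85. EGR2 also passed without DMD KO replicate 1, at 1.64 (adjusted p = 0.0430). With array weights EGR2 passed at 1.81 (adjusted p = 0.0146) and FOS at 1.15 (adjusted p = 0.0406). Both differences exceeded the main fit's 1.30 and 0.63, so the weights favoured the high DMD KO replicate 2. The fit with array weights stopped before its tolerance, and at 2 days it called more of all probe sets than the main fit.

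The same DMD KO animal was high in other early genes. A threshold of 0.5 log2 units above both other animals of its group, chosen after the values were seen, was met by DMD KO replicate 2 for 6 of the 12 immediate early members, ATF3, BTG2, EGR2, FOS, NR4A2 and NR4A3. Over all 10283 genes it was met for 0.603%, so the animal stood this far apart for few genes. ATF3 had 7.75, 8.47 and 7.75 in DMD KO, against 8.17, 8.21 and 7.42 in WT, and NR4A2 had 7.15, 7.87 and 7.33 in DMD KO, against 7.20, 7.28 and 7.37 in WT. JUN had 8.51, 9.03 and 8.72 in DMD KO and 8.93, 8.63 and 8.14 in WT, so that replicate 2 was again the highest but by less. The genotype differences at 3 months were 0.059 (adjusted p = 0.907) for ATF3, 0.17 (adjusted p = 0.601) for NR4A2 and 0.19 (adjusted p = 0.572) for JUN, and without DMD KO replicate 2 they were -0.18 (adjusted p = 0.718), -0.044 (adjusted p = 0.877) and 0.053 (adjusted p = 0.889). Of 26 measured genes in a list of other early response genes, 5 met the threshold in this animal, against the 0.603% of all genes given above. Other arrays met it for genes of this list too: WT replicate 3 at 2 days for 4, against 2.8% of all genes, and WT replicate 1 at 3 months for 2, against 5.87%. In DMD KO replicate 2 the genes were ZFP36, a protein that marks cytokine mRNA for decay, with 8.73, 9.80 and 8.52 in DMD KO and 8.25, 8.20 and 8.32 in WT, and PTGS2 (cyclooxygenase 2), with 6.61, 7.65 and 6.02 in DMD KO and 6.19, 6.23 and 6.39 in WT. The others were RGS2, a regulator of G protein signalling, the cytokine IL6 and the repressor NFIL3, with 10.52, 7.23 and 9.15 in DMD KO replicate 2, against at most 9.95, 6.57 and 8.59 in the other DMD KO animals. On the other arrays IL6 and PTGS2 were dim, mostly under the arrays' 25th percentiles (6.53 to 6.61). The axis score of DMD KO replicate 2 was -2.76, between those of the other DMD KO animals.

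**Figure D3:**
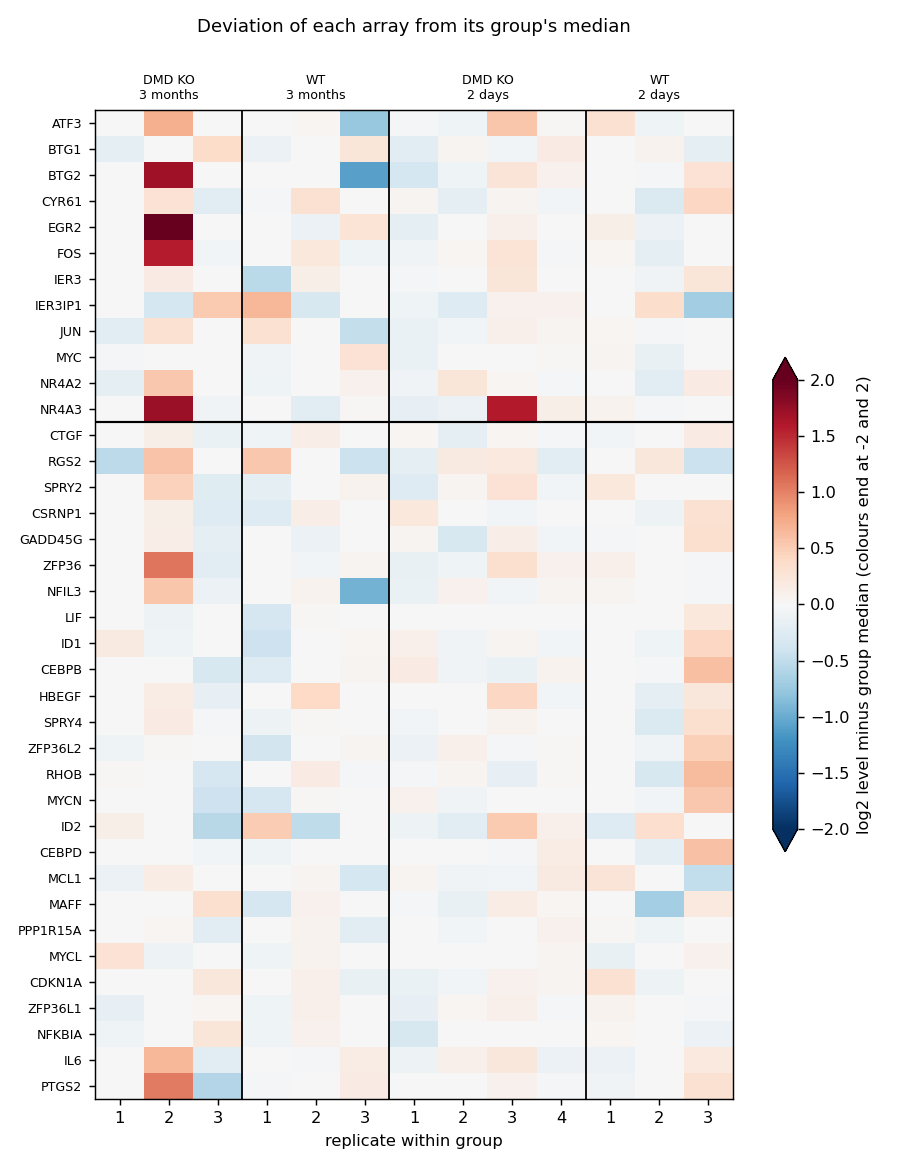
Log2 level minus the median of the array's own group, for the 12 immediate early members (above the black line) and 26 other early response genes (below it), with arrays in columns by group. The column of DMD KO replicate 2 at 3 months is red for FOS, EGR2, NR4A3, BTG2, ZFP36 and PTGS2, and that of DMD KO replicate 3 at 2 days for NR4A3.

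Among newborns 1 DMD KO animal stood out in NR4A3. NR4A3 had log2 levels of 7.13, 7.17, 8.88 and 7.41 in DMD KO replicates 1 to 4 at 2 days, against 6.86, 6.76 and 6.78 in WT. All DMD KO values lay above the WT values, but replicate 3 was far above the others, and the difference of 0.84 ± 0.45 (SE, adjusted p = 0.237) became 0.43 (adjusted p = 0.483) without it. ATF3 had 7.64, 7.58, 8.22 and 7.70 in DMD KO, against 7.75, 7.35 and 7.44 in WT, and replicate 3 was again the highest. FOS ran from 7.48 to 7.83 in DMD KO and 7.27 to 7.49 in WT, BTG2 from 7.82 to 8.42 and 7.61 to 7.93, and EGR2 from 6.95 to 7.24 and 6.96 to 7.18. None of these passed at 2 days: ATF3 differed by 0.27 (adjusted p = 0.467), FOS by 0.20 (adjusted p = 0.682), BTG2 by 0.41 (adjusted p = 0.494) and EGR2 by 0.056 (adjusted p = 0.934). DMD KO replicate 3 held the highest value of its group for 9 of the 12 immediate early members, against 23.8% of all 10283 genes, and DMD KO replicate 1 for 0.

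BTG1, an antiproliferative gene of quiescent cells, was the member higher in DMD KO at both ages. It had log2 levels of 9.24, 9.42 and 9.79 in DMD KO and 8.71, 8.83 and 9.06 in WT at 3 months, and 9.14, 9.42, 9.31 and 9.53 in DMD KO and 8.83, 8.89 and 8.64 in WT at 2 days. Each DMD KO value lay above each WT value of the same age. It was 1.48-fold higher at 2 days, by 0.56 ± 0.14 (SE, adjusted p = 0.0271), and 1.53-fold higher at 3 months, by 0.61 ± 0.15 (SE, adjusted p = 0.0312). The call at 2 days ended without any 1 of DMD KO replicates 2, 3 and 4 and WT replicates 1 and 3 (adjusted p from 0.0528 to 0.102), and with quantile normalization, the replicate block and the axis score (adjusted p from 0.0825 to 0.0974). That at 3 months ended without any 1 of DMD KO replicates 2 and 3 and WT replicates 1 and 2 (adjusted p from 0.0677 to 0.137), and under 4 other settings: the groups of the contrast alone, trend and robust moderation, quantile normalization and the axis score (adjusted p from 0.0513 to 0.0953).

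MYC, a driver of cell growth and itself an early gene, had 8.57, 8.70, 8.70 and 8.72 in DMD KO and 8.41, 8.22 and 8.36 in WT at 2 days. The groups did not overlap, and MYC was 1.27-fold higher, by 0.34 ± 0.095 (SE, adjusted p = 0.0413). At 3 months it had 8.39, 8.44 and 8.44 in DMD KO and 8.12, 8.19 and 8.47 in WT, with overlap and a difference of 0.16 (adjusted p = 0.424). The call at 2 days ended without any 1 of DMD KO replicates 2, 3 and 4 and WT replicates 1 to 3 at 2 days and DMD KO replicates 1 and 2 at 3 months (adjusted p from 0.0545 to 0.106). It also ended with the groups of the contrast alone, trend and robust moderation, quantile normalization and the replicate block (adjusted p from 0.0633 to 0.217). JUN, the partner of FOS in AP-1, did not pass at 2 days at 0.52 ± 0.16 (SE, adjusted p = 0.0633). Its values were nonetheless apart, at 8.59, 8.67, 8.82 and 8.78 in DMD KO and 8.23, 8.16 and 8.20 in WT.

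The other members of this kind did not pass between genotypes. IER3, a survival factor of the early response, ran from 7.30 to 7.56 in DMD KO and 7.44 to 7.75 in WT at 2 days and differed by -0.18 (adjusted p = 0.428), and at 3 months by -0.18 (adjusted p = 0.537). CYR61, a secreted matrix-bound protein and a target of YAP and SRF, differed by -0.099 (adjusted p = 0.722) at 2 days and 0.023 (adjusted p = 0.950) at 3 months, with 95% intervals from -0.46 to 0.26 and -0.36 to 0.41. NR4A2 differed by -0.035 (adjusted p = 0.902) at 2 days. IER3IP1, a small protein of the endoplasmic reticulum that shares only its name with the early genes, had 7.52, 7.34, 7.69 and 7.68 in DMD KO and 7.05, 7.40 and 6.35 in WT at 2 days. WT replicate 3 was the lowest, and the difference of 0.62 ± 0.28 (SE, adjusted p = 0.167) was 0.33 (adjusted p = 0.593) without it.

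Of the 6 KLF genes 1 passed a genotype test. KLF5, a factor of proliferating smooth muscle and of muscle regeneration, had 7.96, 8.22 and 8.39 in DMD KO and 7.50, 7.58 and 7.74 in WT at 3 months. The groups did not overlap, and KLF5 was 1.5-fold higher in DMD KO, by 0.58 ± 0.15 (SE, adjusted p = 0.0421). At 2 days its values of 7.87, 8.14, 7.96 and 8.14 in DMD KO and 8.12, 7.55 and 7.79 in WT overlapped (0.21, adjusted p = 0.351). The call at 3 months ended in 9 of 13 runs that left out 1 array (adjusted p from 0.0526 to 0.185), that is without any array except the 3 of WT at 2 days and DMD KO replicate 1 at 3 months. It also ended with the groups of the contrast alone, quantile normalization, median centring, the replicate block and the axis score (adjusted p from 0.0540 to 0.107).

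KLF9, a factor known to be induced by glucocorticoids, ran from 7.73 to 7.95 in DMD KO and 7.86 to 8.06 in WT at 3 months, and from 7.99 to 8.08 in DMD KO and 7.92 to 8.23 in WT at 2 days. Its differences of -0.12 (adjusted p = 0.541) and -0.049 (adjusted p = 0.765) had 95% intervals from -0.34 to 0.10 and -0.26 to 0.16. KLF10, induced by TGF-beta, had 8.02, 8.84, 8.82 and 8.57 in DMD KO and 8.40, 8.18 and 7.98 in WT at 2 days, with replicate 1 the lowest of its group, and differed by 0.38 (adjusted p = 0.262). At 3 months it differed by 0.22 (adjusted p = 0.609). KLF3, a repressor that also acts on muscle genes, differed by 0.047 (adjusted p = 0.800) at 2 days and 0.25 (adjusted p = 0.262) at 3 months. KLF13, a widely expressed family member, had 8.03 in DMD KO replicates 1 to 3, slightly less in DMD KO replicate 4, and 8.23, 8.03 and 8.85 in WT at 2 days (-0.34, adjusted p = 0.155), with WT replicate 3 the highest, and differed by -0.10 (adjusted p = 0.735) at 3 months. KLF8 had group means between 5.01 and 5.88, under every array's 25th percentile (6.53 to 6.61). Its difference of -0.67 (adjusted p = 0.224) at 2 days, -0.78 to -0.45 with 1 array left out, rests on dim values, and signal over background was not analysed here.

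Of the 4 typical MAP kinase phosphatases measured, DUSP1, DUSP5, DUSP7 and DUSP10, DUSP7 alone passed a genotype test. DUSP7, a cytoplasmic phosphatase of ERK, had 7.47, 7.55, 7.58 and 7.62 in DMD KO and 7.81, 7.83 and 7.97 in WT at 2 days. It was lower in every DMD KO animal and 1.24-fold lower on average (-0.32 ± 0.087, SE, adjusted p = 0.0398). At 3 months it had 7.69, 7.78 and 7.87 in DMD KO and 7.88, 8.09 and 7.86 in WT (-0.17, adjusted p = 0.359). DUSP1, the inducible nuclear phosphatase of p38, JNK and ERK, had 7.80, 8.02, 8.23 and 7.93 in DMD KO and 7.57, 7.58 and 7.94 in WT at 2 days. DMD KO replicate 3 and WT replicate 3 were the highest of their groups, and the difference of 0.29 (adjusted p = 0.224) did not pass. At 3 months DUSP1 had 7.90, 8.29 and 7.78 in DMD KO and 7.96, 7.62 and 7.95 in WT (0.14, adjusted p = 0.642), again highest in DMD KO replicate 2. DUSP5, the nuclear phosphatase of ERK, had 7.60, 8.04 and 7.75 in DMD KO and 7.10, 7.38 and 7.61 in WT at 3 months (0.43, adjusted p = 0.169), with replicate 2 once more the highest. DUSP10, which acts on p38 and JNK, had 7.67, 7.71 and 7.51 in DMD KO and 8.11, 8.08 and 7.75 in WT at 3 months, without overlap, and did not pass (-0.35, adjusted p = 0.118). At 2 days DUSP5 differed by -0.0017 (adjusted p = 0.995) and DUSP10 by 0.053 (adjusted p = 0.780).

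**Figure D4:**
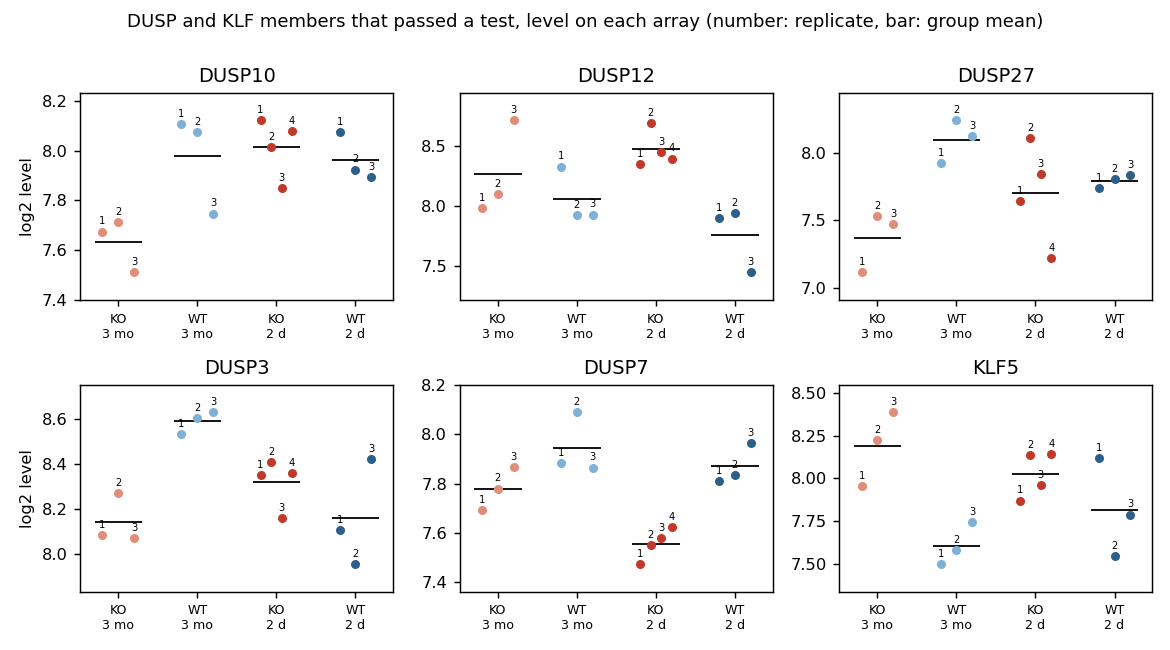
Log2 level on each array of the 5 DUSP genes and of KLF5 that passed at least 1 test, with the replicate number beside each point and a bar at the group mean; each panel has its own axis. At 3 months every DMD KO point of DUSP3 and DUSP27 lies below every WT point, and at 2 days the same holds for DUSP7.

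The other DUSP genes called between genotypes are of the atypical class. DUSP27, a muscle protein of this fold held to lack phosphatase activity, had 7.11, 7.53 and 7.47 in DMD KO and 7.92, 8.24 and 8.12 in WT at 3 months. The groups did not overlap, and DUSP27 was 1.65-fold lower in DMD KO (-0.72 ± 0.19, SE, adjusted p = 0.0418), whereas the values of 7.64, 8.11, 7.85 and 7.22 in DMD KO and 7.74, 7.81 and 7.84 in WT at 2 days overlapped (-0.091, adjusted p = 0.766). Its dimmer probe set had 7.56, 7.67 and 7.65 in DMD KO and 7.59, 7.69 and 7.52 in WT at 3 months. Its difference was 0.028 (adjusted p = 0.876), so the probe sets disagreed, and with the mean of both probe sets it was -0.35 (adjusted p = 0.103). DUSP3, a small phosphatase of ERK and JNK, had 8.08, 8.27 and 8.07 in DMD KO and 8.53, 8.61 and 8.63 in WT at 3 months. The values were again apart, and it was 1.36-fold lower (-0.45 ± 0.12, SE, adjusted p = 0.0473), against 0.16 (adjusted p = 0.373) at 2 days.

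DUSP12, a zinc-binding phosphatase, had 8.35, 8.70, 8.45 and 8.40 in DMD KO and 7.90, 7.94 and 7.45 in WT at 2 days. It was 1.64-fold higher in DMD KO (0.71 ± 0.18, SE, adjusted p = 0.0311), with no overlap, and WT replicate 3 was the lowest array. At 3 months it had 7.98, 8.10 and 8.72 in DMD KO and 8.33, 7.93 and 7.93 in WT (0.21, adjusted p = 0.586). DUSP11, which removes phosphates from RNA 5′ ends, had 8.54, 8.68, 8.81 and 8.72 in DMD KO and 8.23, 8.41 and 7.08 in WT at 2 days (0.78, adjusted p = 0.112). The low value of WT replicate 3 widened that difference, which was 0.36 (adjusted p = 0.465) without it. It passed without WT replicate 2, at 1.03 (adjusted p = 0.0454). DUSP26 had 7.73, 7.50, 7.76 and 8.06 in DMD KO and 7.24, 7.32 and 7.46 in WT at 2 days (0.42, adjusted p = 0.0525), with no overlap. At 3 months DUSP11 and DUSP26 differed by 0.56 (adjusted p = 0.367) and 0.031 (adjusted p = 0.910). For the remaining DUSP genes, DUSP13, DUSP18, DUSP19, DUSP21 and DUSP28, the difference ran from -0.30 in DUSP19 to 0.13 in DUSP13 at 2 days and from -0.30 in DUSP28 to -0.051 in DUSP13 at 3 months, and none passed. DUSP28 lay below WT without overlap at both ages. At single ages this held for 10.5% of all probe sets at 2 days and 10.1% at 3 months, and the share at both ages was not computed. DUSP28 reached at most 8.36 in DMD KO against at least 8.40 in WT at 2 days (-0.27, adjusted p = 0.185). At 3 months these were 8.23 and 8.37 (-0.30, adjusted p = 0.249).

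Each DUSP call between genotypes depended on single arrays. That of DUSP7 ended without any 1 of the 4 DMD KO arrays, WT replicates 1 and 3 at 2 days and DMD KO replicate 2 at 3 months (adjusted p from 0.0572 to 0.142), and that of DUSP12 without any 1 of DMD KO replicates 2, 3 and 4 and WT replicate 3 at 2 days (adjusted p from 0.0633 to 0.130). Both ended with the replicate block and the axis score, and DUSP7 with the groups of the contrast alone (adjusted p from 0.0711 to 0.120 for DUSP12 and 0.0732 to 0.105 for DUSP7). With the axis score the difference of DUSP12 was 0.41 (adjusted p = 0.0711). The call of DUSP27 ended without any 1 of DMD KO replicates 1 and 3 and WT replicate 1 at 2 days and DMD KO replicates 1 to 3 and WT replicates 2 and 3 at 3 months (adjusted p from 0.0572 to 0.152), and with the axis score, at -0.69 (adjusted p = 0.0619). That of DUSP3 ended without any array except WT replicates 2 and 3 at 2 days (adjusted p from 0.0522 to 0.172), and with the groups of the contrast alone, trend and robust moderation, the replicate block and the axis score (adjusted p from 0.0522 to 0.134).

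Genes upstream of the early response were read from lists. Of 14 measured genes of the MAP kinase cascade, 4 rose in DMD KO at 2 days and none fell, against 7.09% of all probe sets higher, with a median difference of 0.32 over the 14. They were RPS6KA3 (RSK2), a kinase downstream of ERK, at 1.51 ± 0.27 (SE, adjusted p = 0.00588), MAPK10 (JNK3) at 1.10 (adjusted p = 0.0211), MAP2K4, an activator of JNK and p38, at 0.51 (adjusted p = 0.0353), and MAPKAPK2, the p38-activated kinase, at 0.33 (adjusted p = 0.0432). WT replicate 3 at 2 days was the lowest of its group in all 4, though only slightly in MAPK10 and MAPKAPK2. RPS6KA3 had 10.29, 9.83 and 8.96 in WT against 11.21, 10.92, 11.22 and 11.45 in DMD KO. The mean level of the 14 genes was 7.65 in WT replicate 3. It was 8.05 and 8.14 in WT replicates 1 and 2, and 8.26 to 8.44 in DMD KO. In MAPK10 DMD KO replicate 4, at 8.48, stood more than 0.5 log2 units above the other DMD KO animals. How far the 4 calls and the median rest on these arrays was not tested. At 3 months MAPKAPK2 was instead lower in DMD KO (-0.52, adjusted p = 0.00818), and the interaction of genotype and age passed (-0.85, adjusted p = 0.00361). It had 9.01, 9.11 and 9.02 in DMD KO and 9.61, 9.67 and 9.43 in WT at 3 months, against 9.63, 9.44, 9.33 and 9.52 in DMD KO and 9.23, 9.11 and 9.10 in WT at 2 days. Of 5 measured members of the list of SRF, its partners and the CREB and ATF factors, ATF2 alone rose at 2 days (0.69, adjusted p = 0.0345). ATF2 had 8.72, 8.86 and 7.88 in WT, lowest in replicate 3, and 9.10 to 9.30 in DMD KO. None of the 5 passed at 3 months, where 2 lay below WT without overlap, against 10.1% of all probe sets. These were SRF, with 8.41, 8.47 and 8.47 in DMD KO and 8.81, 8.55 and 8.53 in WT (-0.18, adjusted p = 0.321), and ELK1. ELK1 had 7.84, 7.78 and 7.68 in DMD KO and 7.88, 8.06 and 8.09 in WT.

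In the list of 26 other early response genes MCL1, a survival protein with a short-lived mRNA, and CDKN1A (p21), the cell cycle inhibitor, rose in DMD KO at 2 days, at 0.90 (adjusted p = 0.00522) and 0.44 (adjusted p = 0.0308). This was 7.69% of the list, near the 7.09% of all probe sets that were higher. MCL1 had 9.71, 9.45 and 8.96 in WT, lowest in replicate 3, and 10.17 to 10.42 in DMD KO. At 3 months RGS2 rose by 2.03 ± 0.28 (SE, adjusted p = 0.00105), ID2, an inhibitor of helix-loop-helix factors, by 1.32 (adjusted p = 0.0117), and CDKN1A by 0.61 (adjusted p = 0.0100), and none fell. These were 11.5% of the list, against 4.62% of all probe sets higher. RGS2 had 9.42, 10.52 and 9.95 in DMD KO and 8.43, 7.89 and 7.47 in WT at 3 months, so that all 3 DMD KO animals were above the WT animals, unlike FOS. The median difference of the 26 genes was -0.097 at 2 days and -0.0082 at 3 months.

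Between ages, EGR2 in DMD KO was the member that changed most. It had 8.25, 10.28 and 8.26 in DMD KO at 3 months, against 6.95, 7.14, 7.24 and 7.16 in DMD KO at 2 days, and was 3.5-fold higher, by 1.81 ± 0.37 (SE, adjusted p = 0.00891). Even the lower pair of animals at 3 months lay about 1 log2 unit above the newborns, and without replicate 2 the difference was 1.13 (adjusted p = 0.000422). This was the 1 call among the 10 made for the members that held in all 13 runs with an array left out and under all 9 other settings (adjusted p from 0.000422 to 0.0408). In WT the corresponding difference of EGR2 was 0.56 ± 0.40 (SE, adjusted p = 0.690), with 7.57, 7.46 and 7.85 at 3 months and 7.18, 6.96 and 7.07 at 2 days. Without DMD KO replicate 2 it passed at the same size, 0.56 (adjusted p = 0.0345), in a fit whose pooled spread no longer held that animal.

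DUSP10 was lower in DMD KO at 3 months than in DMD KO at 2 days, at 7.67, 7.71 and 7.51 against 8.12, 8.01, 7.85 and 8.08, a difference of -0.39 ± 0.11 (SE, adjusted p = 0.0489). Its call ended without any array except DMD KO replicate 3 and WT replicate 3 at 2 days and WT replicates 1 and 3 at 3 months (adjusted p from 0.0573 to 0.182), and with trend and robust moderation and the replicate block (adjusted p from 0.0501 to 0.0654). These were the 2 of 32 members called between ages in DMD KO, 1 in each direction, against 8.04% of all probe sets (4.47% higher and 3.57% lower). The values of the ages did not overlap for 4 members in the higher and 4 in the lower direction, against 10.1% and 10.7% of all probe sets. Among members that did not pass, KLF8 differed by 0.88 (adjusted p = 0.175) at dim levels (0.57 to 1.05 with 1 array left out), NR4A3 by 0.75 (adjusted p = 0.465), FOS by 0.61 (adjusted p = 0.331), BTG2 by 0.59 (adjusted p = 0.511) and DUSP19 by 0.54 (adjusted p = 0.357). Without DMD KO replicate 2 at 3 months the difference of FOS was 0.074 (adjusted p = 0.943), that of NR4A3 0.16 (adjusted p = 0.968) and that of BTG2 0.030 (adjusted p = 0.993).

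In WT none of the 32 members was called between ages by limma, with or without trend and robust moderation, against 2.89% of all probe sets, and 2 had an unadjusted p under 0.05. The values at 3 months lay above all those at 2 days for 5 members and below for 0, against 7.02% and 6.32% of all probe sets. Over all probe sets 12.9% had an unadjusted p under 0.05. The 2 such members were BTG2, with 9.28, 9.27 and 8.19 at 3 months and 7.64, 7.61 and 7.93 at 2 days (1.18 ± 0.40, SE, adjusted p = 0.176), and DUSP3, with 8.53, 8.61 and 8.63 at 3 months and 8.11, 7.95 and 8.42 at 2 days (0.43 ± 0.12, SE, adjusted p = 0.0892). BTG2 was higher in each WT animal at 3 months than in each newborn, and passed without DMD KO replicate 2 at 3 months, at 1.18 (adjusted p = 0.0391). DUSP3 passed without WT replicate 3 at 2 days, at 0.56 (adjusted p = 0.0139). NR4A3 had 7.65, 7.45 and 7.68 in WT at 3 months and 6.86, 6.76 and 6.78 in WT at 2 days, without overlap (0.79, adjusted p = 0.596). IER3IP1 and DUSP19 differed by 0.59 (adjusted p = 0.460) and 0.43 (adjusted p = 0.677). Leaving out WT replicate 3 at 2 days gave 0.29 (adjusted p = 0.757) and 0.096 (adjusted p = 0.951). Over all 13 arrays left out in turn they ran from 0.29 to 0.82 and from 0.096 to 0.75.

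For the interaction, the change of the genotype difference between ages, no member passed by limma, with or without trend and robust moderation. Over all probe sets 5.05% passed. An unadjusted p under 0.05 was found for 4 members: DUSP3, DUSP10, DUSP27 and EGR2. That is a smaller share than the 16% of all probe sets. DUSP3 came closest, at -0.61 ± 0.16 (SE, adjusted p = 0.0553), since DMD KO and WT differed by -0.45 at 3 months and by 0.16 at 2 days. It passed without WT replicate 3 at 2 days, at -0.74 (adjusted p = 0.00930). EGR2 was at 1.24 ± 0.55 (SE, adjusted p = 0.281), and without DMD KO replicate 2 at 3 months at 0.57 (adjusted p = 0.115). DUSP27 was at -0.63 (adjusted p = 0.235) and DUSP10 at -0.40 (adjusted p = 0.221). The interaction of BTG2, -0.59 (adjusted p = 0.728), had a 95% interval from -1.79 to 0.61 and ran from -1.15 to -0.31 with 1 array left out, the first of these without DMD KO replicate 2 at 3 months. That of KLF8 was 0.71 (adjusted p = 0.602), 0.29 to 1.03 with 1 array left out, and that of DUSP12 was -0.51 (adjusted p = 0.416).

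Lists of genes known to respond to glucocorticoids, hypoxia and heat were read beside the members, with the different deaths of the genotypes in mind. Of 7 measured glucocorticoid response genes 2 rose in DMD KO at 2 days, against 7.09% of all probe sets higher. They were GLUL (glutamine synthetase) at 1.88 ± 0.27 (SE, adjusted p = 0.00171) and FKBP5, a co-chaperone of the glucocorticoid receptor, at 2.12 ± 0.62 (SE, adjusted p = 0.0490). WT replicate 3 at 2 days was the lowest of its group in both. FKBP5 had 9.03, 8.28 and 11.08 in DMD KO and 7.65, 8.27 and 6.87 in WT at 3 months, and 11.31, 11.07, 10.92 and 11.22 in DMD KO and 10.11, 9.17 and 7.76 in WT at 2 days. At each age every DMD KO value lay above every WT value. At 3 months DMD KO replicate 3 was the highest and DMD KO replicate 2, the animal with high FOS, barely above WT replicate 2. PER1 and TSC22D3, also induced by glucocorticoids, differed by 0.17 (adjusted p = 0.307) and 0.060 (adjusted p = 0.754) at 2 days. None of the 7 passed at 3 months by limma, where FKBP5 differed by 1.87 ± 0.66 (SE, adjusted p = 0.136) and GLUL by 0.88 ± 0.29 (SE, adjusted p = 0.111), both without overlap and with an unadjusted p under 0.05. The interaction of genotype and age passed for neither (adjusted p = 0.951 for FKBP5 and 0.218 for GLUL).

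Of 16 measured hypoxia response genes EGLN3 rose in DMD KO at 2 days (0.94, adjusted p = 0.0188) and LDHA and LOX fell (-0.82 (adjusted p = 0.00209) and -0.93 (adjusted p = 0.00208)). At 3 months LOX (1.63, adjusted p = 5.5e-05) and HK2 (0.57, adjusted p = 0.0427) rose. Over all probe sets 7.09% were higher and 2.85% lower at 2 days, and 4.62% higher at 3 months. EGLN3 is an oxygen-dependent hydroxylase, LDHA the lactate dehydrogenase of muscle, LOX a collagen crosslinking enzyme and HK2 a hexokinase. The mean level of the list ran from 8.24 to 8.28 in DMD KO and 8.19 to 8.32 in WT at 3 months, and from 8.17 to 8.33 in DMD KO and 8.15 to 8.32 in WT at 2 days. Of 5 measured heat shock genes HSPB1 (1.28, adjusted p = 0.00893) and BAG3 (0.50, adjusted p = 0.0105) rose in DMD KO at 2 days and DNAJB1 fell (-0.89, adjusted p = 0.0173). The shares of all probe sets at 2 days were 7.09% higher and 2.85% lower. None of the 5 passed at 3 months. What part the manner of death had in the members' values was not tested.

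Markers of other cells moved with genotype. At 3 months 3 of 5 macrophage markers rose in DMD KO, against 4.62% of all probe sets higher. The mean level of the list ran from 8.21 to 9.16 in DMD KO and 6.63 to 6.94 in WT. DMD KO replicate 3 was the highest of these, while DMD KO replicate 2, the animal with high FOS, was at 8.40. At 2 days 0 of 5 passed (7.10 to 7.20 in DMD KO and 6.75 to 6.91 in WT). Of 6 measured fibroblast markers all 6 fell in DMD KO at 2 days (9.18 to 9.47 in DMD KO and 10.66 to 10.71 in WT), against 2.85% of all probe sets lower. At 3 months 4 of them rose (10.73 to 10.84 in DMD KO and 9.89 to 10.28 in WT), against 4.62% higher. Of 4 endothelial markers 1 rose at 2 days, against 7.09% of all probe sets higher, and none passed at 3 months. There 2 of the 4 lay below WT without overlap, against 10.1% of all probe sets, with a median difference of -0.27 over the 4. Of 4 neutrophil, 4 adipocyte and 3 red blood cell markers none passed at either age. The mean neutrophil level ran from 6.66 to 6.85 in DMD KO and 6.66 to 6.91 in WT at 3 months. In whole muscle more cells of a type and more RNA per cell cannot be told apart, and the part of these cells in BTG1, KLF5 and the early genes was not tested. Of the satellite cell and myoblast markers MYOG alone was measured and did not pass between genotypes (0.25 (adjusted p = 0.102) at 2 days and 0.34 (adjusted p = 0.0570) at 3 months).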

How the data were processed

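The submitters' processing notes name Affymetrix Power Tools; its version, summary method and normalization are not stated there. The authors deposited 21893 probe sets by 13 arrays with a lowest value of 2.81 and a highest of 13.8. They were taken to be log2 levels because of this span, and were used unchanged. Gene names came from the platform annotation: 11028 probe sets had 1 symbol, 418 several and 10447 none, and all 32 members matched a RefSeq gene of the same symbol. All probe sets entered a linear model (limma 3.58.1, R 4.3.3, lmFit then eBayes) over the 4 groups with 9 residual degrees of freedom, and p was adjusted by Benjamini-Hochberg over all probe sets. Tests are two-sided, a call is an adjusted p under 0.05, SE is limma's moderated standard error and SD the spread within a group. The script was tested on simulated data.

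Members, gene lists and alternatives were chosen with earlier results of these data known. Named were all immediate early members, all KLF and DUSP members called in any contrast, and per contrast the 6 members with the largest difference; other members and list genes named for their values were chosen after these were seen. Alternatives were the groups of the contrast alone, trend and robust moderation, quantile normalization, median centring, a filter at the 25th percentile, the mean of a gene's probe sets, array weights, each array left out, a replicate block, and as a covariate the axis score, an array's score on the first component of deviations from the group means. Replicate numbers were not taken as pairs. No label says that animals were sampled more than once, and each p sets a difference of group means against limma's pooled, moderated spread between these animals. The DMD KO animals were clones from a number of cell clones that was not found. Whether differences hold beyond those clones was not tested.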

Additional observations from a re-analysis of the deposited data

Results flagged for a closer look

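Within the 4 DMD KO animals at 2 days, the one group large enough for this check, 1 array lay far from the other 3 for 4 of the 32 members, and chance flags about 1 in 20. The gap to the nearest array as a share of the group's range was 0.837 for NR4A3, where replicate 3 was high, at 7.13, 7.17, 8.88 and 7.41. It was 0.892 for IER3, where replicate 3 was high again, at 7.30, 7.32, 7.56 and 7.33, and 0.855 for MYC, where replicate 1 was low, at 8.57, 8.70, 8.70 and 8.72. For KLF13 the share was 1, because replicates 1 to 3 held the same value to the last digit and replicate 4 was lower by under 0.1 log2 unit. That value, 8.03, stood on 6 of the 13 arrays, as happened for 143 of 21893 probe sets.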

How the results depend on the processing

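Of the 10 calls of members, 1, that of EGR2 between ages in DMD KO, held in every run; the other 9 kept their direction and lost the call in at least 4 of 13 runs with 1 array left out. As counts, 4, 4, 0, 2 and 0 members were called at 2 days, at 3 months, between ages in WT, between ages in DMD KO and in the interaction. With 1 array left out these counts ran from 0 to 5, 0 to 5, 0 to 2, 1 to 3 and 0 to 1. Fewer arrays also leave fewer degrees of freedom. At 3 months the count was 1 with the groups of the contrast alone and 2 with quantile normalization. With trend and robust moderation it was 2 at 3 months and 1 between ages in DMD KO, and with the filter on low probe sets 1 in the interaction. With array weights, a fit that stopped before its tolerance, the 5 counts were 9, 7, 2, 7 and 1, while the calls over all probe sets rose too (to 24.8% at 2 days), and the interaction of BTG2 was 0.14 in place of -0.59. With the axis score they were 2, 1, 3, 5 and 1. The causes were not tested. With the replicate block the counts were 0, 2, 0, 2 and 1. Except for array weights at 2 days, the shares of all probe sets called under these settings are not set beside the counts here. A moved count is therefore not read as a result about the members. Deviations of animals with the same number correlated between genotypes at -0.35 to 0.31, so the numbers were not taken as pairs. Signal over background was not analysed here, which limits what KLF8, MAPK10, IL6 and PTGS2 can show.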

Other observations

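The spread of the early genes among animals of 1 group was set beside that of all 10283 genes, as a description. In DMD KO at 3 months the range over the 3 animals was 2.03 log2 units for EGR2 and was wider than that of 99.9% of the genes, and for FOS, NR4A3 and BTG2 it was wider than that of 99.8%, 99.9% and 99.9%. In WT at 3 months the same shares were 66% for EGR2, 50.3% for FOS, 36.6% for NR4A3 and 98.2% for BTG2. MYC, also an early gene, had one of the narrowest ranges in DMD KO at 3 months, wider than that of 3.23% of the genes.

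The animals of WT at 3 months differed by gene. Replicate 3 was the lowest in BTG2, JUN, ATF3 and NFIL3, chosen after the values were seen, which had 8.19, 8.14, 7.42 and 7.45 there, against at least 9.27, 8.63, 8.17 and 8.38 in WT replicates 1 and 2. The same animal was the highest of its group in 5 of the 12 immediate early members (BTG1, EGR2, MYC, NR4A2 and NR4A3), against 20.8% of all genes, with EGR2 at 7.85 against at most 7.57 in the others. Replicate 1 was the one apart in IER3, at 7.11, 7.76 and 7.64, and in IER3IP1, at 8.08, 7.08 and 7.41.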
